A study of Rattus norvegicus with 9 samples.

Results

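Transcripts of 28 solute carrier genes were followed across 9 RNA-seq libraries of RN46A cells, a serotonergic line derived from rat raphe neurons. The genes are those whose symbol begins with Slc in any of 3 tables of comparisons deposited by the authors, with 3 such genes left out by rule; they are 28 of 32662 genes in the count table and of 1384 that carry a name. All cultures grew at 33 °C with 5% serum, and a shift to 39 °C with 1% serum for 72 h let them differentiate. A further 72 h followed without a drug (control), with 0.5 mM lithium or with 0.5 mM VPA (valproic acid). Each of these groups has 3 libraries, and the labels describe no vehicle for the controls. All cells are of 1 line, and separate cultures within a group are not stated; p-values therefore reflect library-to-library spread alone, possibly technical.

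Solute carriers are membrane proteins that move small molecules either down their gradient or by coupling them to gradients of sodium, protons or other ions. They are numbered in families by sequence and each family tends to share a kind of substrate. In neurons they clear transmitters, extrude calcium, load vesicles with zinc, import glucose and carry metals and amino acids between compartments. Both drugs are mood stabilisers; VPA is an inhibitor of histone deacetylases, and among the targets of lithium are inositol monophosphatase and a glycogen synthase kinase.

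The members were chosen by measured values, the p- and q-values of the authors' comparisons. The authors' DESeq2 table for VPA (genes up to an adjusted p of 0.05) names 24 of them and the Salmon and sleuth table for VPA (transcripts up to a q of 0.05) names 15, with 13 in both. The remaining 2, Slc7a2 and Slco4a1, come from the lithium table, which lists genes with an unadjusted p up to 0.05. Differences between VPA and control are therefore given below as a description and support nothing, and other carriers, which the authors did not list, are not analysed here. Closest to the limit inside the DESeq2 table stood Slc25a29 and Slc8a1, with an adjusted p of 0.048 each in the authors' deposited table. Outside the rule are 4 carriers named only in the authors' Cufflinks table, Slc4a8, Slc4a3, Slc26a2 and Slc38a2.

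RefSeq promoters (250 bases before to 50 after the annotated start, build GRCr8) were matched by symbol for 19 of the 28 members. Those of the 3 members that stood highest in VPA over control and of the 1 that stood lowest, among members with a mean of 1 CPM or more and a promoter entry, are shown because their transcripts sit at the ends of the range described below. CPM is the usual depth-scaled count, computed on TMM-corrected library totals. Capitals mark matches to the GC box letters GGGCGG on either strand.
Slc8a2 (chr1:85950512-85950811, plus strand): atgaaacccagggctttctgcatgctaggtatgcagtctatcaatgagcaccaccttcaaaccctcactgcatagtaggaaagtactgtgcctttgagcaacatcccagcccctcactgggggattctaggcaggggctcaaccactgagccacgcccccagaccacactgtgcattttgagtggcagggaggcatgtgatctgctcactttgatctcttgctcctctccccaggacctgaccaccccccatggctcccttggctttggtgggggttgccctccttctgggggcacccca
Slc30a3 (chr6:30997164-30997463, plus strand): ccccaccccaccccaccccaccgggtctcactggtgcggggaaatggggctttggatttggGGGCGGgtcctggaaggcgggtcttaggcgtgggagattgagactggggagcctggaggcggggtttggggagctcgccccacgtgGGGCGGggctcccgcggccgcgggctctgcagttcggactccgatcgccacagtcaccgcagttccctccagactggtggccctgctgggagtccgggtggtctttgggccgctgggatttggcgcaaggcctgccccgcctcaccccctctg
Slc6a17 (chr2:197843834-197844133, minus strand): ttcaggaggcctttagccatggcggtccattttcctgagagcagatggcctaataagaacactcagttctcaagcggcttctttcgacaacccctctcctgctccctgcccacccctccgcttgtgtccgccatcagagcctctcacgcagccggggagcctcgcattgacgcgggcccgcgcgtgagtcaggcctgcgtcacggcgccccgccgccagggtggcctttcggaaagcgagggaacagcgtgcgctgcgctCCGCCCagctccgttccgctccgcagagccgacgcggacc
Slc6a9 (chr5:136659826-136660125, plus strand): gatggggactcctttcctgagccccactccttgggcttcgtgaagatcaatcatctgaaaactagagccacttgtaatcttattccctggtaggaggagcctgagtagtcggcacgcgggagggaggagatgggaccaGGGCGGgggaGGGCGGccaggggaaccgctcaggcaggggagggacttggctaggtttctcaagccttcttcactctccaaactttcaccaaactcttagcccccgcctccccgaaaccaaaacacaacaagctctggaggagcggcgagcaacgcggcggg
The 4 windows differ in composition. That of Slc8a2 holds 1 CpG and 0 GC boxes, that of Slc6a17 holds 30 CpGs and 1 GC box, that of Slc30a3 holds 21 and 2, and that of Slc6a9 holds 14 and 2. In the Slc8a2 window the annotated start falls on the letters atg, so it may mark the start of coding and not of transcription. Its counts may then not describe a promoter, which was not tested. The GC box letters occurred in 13 of the 19 member promoters and in 33.1% of all 33469 promoters of the same length. TATAAA occurred in 2 of 19 and in 14.2% of all, the E-box letters CACGTG in 1 and in 6.42%, and the cAMP-response letters TGACGTCA in 0 and in 1.83%, each on both strands. Member promoters had a median GC content of 63.0%, against 51.7% for all. The full set takes in promoters of genes with and without counts here, while members were listed from these samples. The sets are thus unlike, and nothing is read from their differences. These matches are descriptions of the letters and the windows were not tied to any measurement of binding.

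Library totals ran from 9580591 to 13030300 counts, and 1 count was worth 0.0767 to 0.104 CPM. Of the members, 25 had enough counts to be tested in a fit over 12719 genes, and Slc22a25, Slc38a5 and Slc7a2 did not. The members together took 0.0837 to 0.117% of the counts of a library. The library kit named in the labels does not mark strand, so reads of a carrier and of an overlapping gene cannot be told apart. In these bulk samples fewer cells of a type and less RNA per cell cannot be told apart either. Markers of neurons and of other cell types moved with the VPA group. Only genes the authors listed carry a name, and most names come from comparisons of VPA with control. These shifts therefore follow in part from the listing and support nothing, and markers without a name were not summed. The 8 of 12 neuronal markers that carry a name summed to 41.4 to 52.6 CPM in controls. With lithium they summed to 41.5 to 53.0 CPM and with VPA to 154 to 169 CPM. The 4 of 8 neural crest and Schwann markers summed to 11.1 to 16.9, 14.4 to 15.9 and 55.8 to 65.1 CPM. Of these 4, the fit called 3 higher and 1 lower with VPA than in controls. Over all genes tested, 5.71% were called higher and 2.99% lower. The 8 of 12 fibroblast and mesenchymal markers summed to 11100 to 13400, 8110 to 10000 and 4010 to 5540 CPM, with Lum at 0 counts in all VPA libraries. The lithium sums of these markers thus also lay below all control sums. Of 7 serotonergic markers only Maob carries a name, at 0.868 to 1.45 CPM in controls, 0.693 to 1.21 with lithium and 5.46 to 8.42 with VPA. Of 3 astrocyte markers 0 carry one. The line's serotonergic label could not be checked against its defining genes. The part of these shifts in the carrier values was not tested.

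Set against control, the carriers ran in both directions with VPA, with 19 of the 25 tested at a positive and 6 at a negative log2 change. The median log2 change was 1.07, beside -0.01 over all genes tested, and the range was -1.23 to 2.89. The VPA and control libraries did not overlap in 24 of 25, 18 higher and 6 lower with VPA; among all genes tested 25.5% did not overlap, 14.1% higher and 11.5% lower. The fit called 18 of the 25, 13 higher and 5 lower, where 8.7% of all genes tested were called, 5.71% higher and 2.99% lower. These shares follow from how the members were listed and nothing is read from them. The 7 tested members not called were Slc2a1, Slc2a3, Slc4a7, Slc4a11, Slc8a1, Slc25a23 and Slco4a1. The count of called members was 10, 9, 9, 11 and 10 without control 1, control 2, VPA 1, VPA 2 and VPA 3, in that order. Over all genes, 1106 were called. With the replicate number as a block 1741 genes and 21 members were called, the members gained being Slc8a1, Slc25a23 and Slco4a1. That block also took the lithium numbers as pairs, which the labels do not state. With the block on VPA and control libraries alone 2408 genes and 22 members were called, with Slc2a3 and Slc4a7 also gained and Slc6a9 lost.

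**Figure D1:**
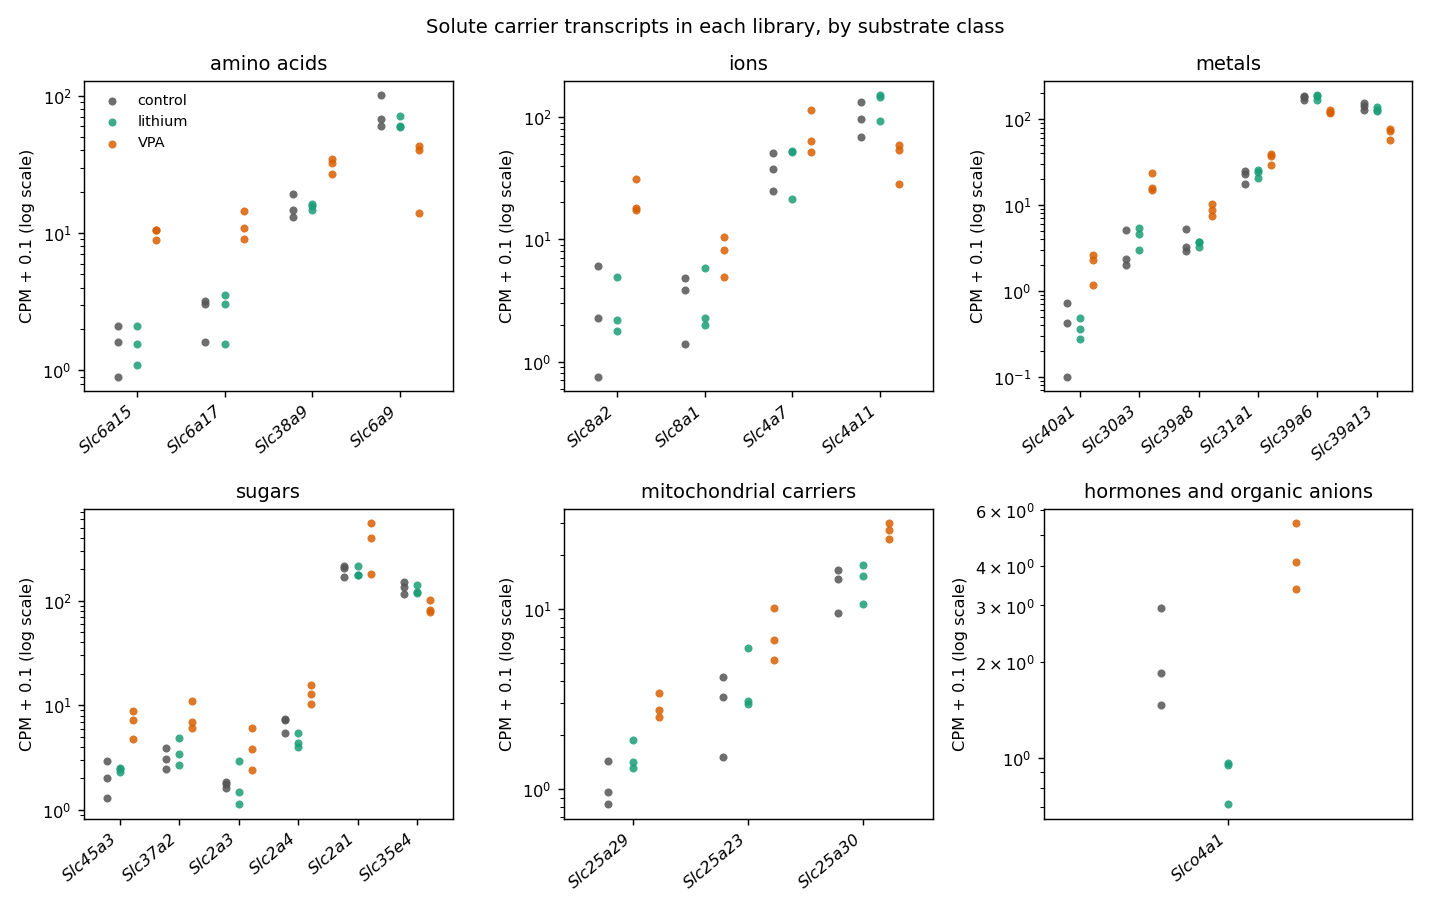
Level of 24 tested carriers in each of the 9 libraries, as CPM + 0.1 on a log axis, in 1 panel per substrate class; each point is 1 library, coloured by group. VPA libraries lie apart from control libraries for 23 of these 24 genes, the exception being Slc2a1, while lithium and control libraries overlap for 23 of 24, the exception being Slco4a1.

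Among carriers of amino acids and transmitters the pair of brain-enriched Slc6 genes stood several-fold higher with VPA. Slc6a15 (ENSRNOG00000027468), a sodium-coupled transporter of branched-chain amino acids and proline, was at 1.99, 1.52 and 0.799 CPM in controls 1, 2 and 3, at 1.46, 2.02 and 1.00 CPM with lithium and at 10.5, 10.4 and 8.83 CPM with VPA. The VPA libraries were all above the others, with little spread among them, and control and lithium overlapped. The fitted change was 2.78 ± 0.35 (log2 ± SE, here and below), or 6.87-fold. Slc6a17 (ENSRNOG00000050090), a synaptic vesicle transporter of neutral amino acids, was at 3.08, 1.52 and 2.93 CPM in controls, 1.46, 3.42 and 2.93 CPM with lithium and 8.88, 10.8 and 14.4 CPM with VPA. Its change of 2.16 ± 0.36 again left no overlap between VPA and either other group.

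Slc38a9, the lysosomal arginine sensor that acts upstream of mTORC1, was at 19.3, 13.0 and 14.7 CPM in controls, 14.6, 15.7 and 16.2 CPM with lithium and 32.3, 34.8 and 26.9 CPM with VPA, a change of 1.00 ± 0.20 or 1.99-fold. Its relative Slc38a5, a glutamine transporter of system N, was almost silent. It had 2 counts in all controls together, 4 with lithium and 26 with VPA. The ratio of VPA to control was 12.2, with a 95% exact counting interval of 3.06 to 106 that covers counting error only.

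Slc6a9 (ENSRNOG00000019484), the glycine transporter GlyT1, moved the other way. It stood at 68.2, 59.9 and 101 CPM in controls, 58.7, 71.0 and 60.1 CPM with lithium and 43.2, 40.3 and 14.0 CPM with VPA. VPA did not overlap either other group, while control and lithium overlapped. VPA 3 lay far below the other VPA libraries, and control 3 was the highest control. The fitted change was -1.23 ± 0.35, or 0.426 of the control level. It became -0.87 without VPA 3 and -0.97 without control 3, and its call was lost in 13 of 16 alternative fits. Slc7a2, a carrier of arginine and other cationic amino acids from the lithium table, had 24 counts in controls, 6 with lithium (0, 3 and 3 by library) and 12 with VPA. The lithium to control ratio was 0.222 with a 95% exact counting interval of 0.0742 to 0.558, which covers counting error only and describes the comparison by which the gene was listed; the authors' deposited table gives a log2 change of -0.53 and an adjusted p of 1.00. In lithium 1, where it had 0 counts, 3 counts would be 0.255 CPM.

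Among ion carriers the calcium exchangers stood higher with VPA, though of the 4 genes in this class the fit called Slc8a2 alone. Slc8a2 (ENSRNOG00000001492), the sodium-calcium exchanger NCX2 of neurons, was at 2.18, 0.651 and 5.95 CPM in controls, 2.07, 1.67 and 4.85 CPM with lithium and 17.9, 17.1 and 31.3 CPM with VPA. Replicate 3 was the highest library of each group, and the lowest VPA library was still above the highest control. The change of 2.89 ± 0.59 (7.41-fold) became 3.93 without control 3. It was the largest of the tested members with all libraries, but was under that of Slc6a15 without control 1 (2.70 against 3.10), control 2 (2.43 against 2.82) or VPA 3 (2.55 against 2.86). Slc8a1, the exchanger NCX1 best known from heart, was at 3.72, 1.30 and 4.71 CPM in controls, 1.89, 2.19 and 5.70 CPM with lithium and 8.03, 4.81 and 10.3 CPM with VPA. VPA 2 lay just above control 3, and VPA and lithium overlapped; the change was 1.24 ± 0.49.

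Slc4a7, the sodium-bicarbonate cotransporter NBCn1 that takes base into the cell, stood at 50.3, 24.5 and 37.8 CPM in controls, 21.1, 51.4 and 52.8 CPM with lithium and 113, 51.8 and 63.9 CPM with VPA. VPA 1 was well above the rest, VPA 2 was barely above control 1, and the change of 1.02 ± 0.38 was 0.62 without VPA 1. Slc4a11, a proton and ammonia conductance of the plasma membrane, was at 68.6, 96.5 and 132 CPM in controls, 92.4, 145 and 151 CPM with lithium and 54.0, 59.3 and 28.2 CPM with VPA. All VPA libraries lay under all control and lithium libraries, with VPA 3 the lowest, and the change was -1.07 ± 0.31.

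Metal carriers divided by gene. Slc30a3 (ENSRNOG00000006204), the zinc transporter ZnT3 that fills synaptic vesicles with zinc, was at 1.90, 2.28 and 5.06 CPM in controls, 4.56, 2.89 and 5.31 CPM with lithium and 15.9, 15 and 23.8 CPM with VPA. Every VPA library was above every other library, by a change of 2.55 ± 0.38 or 5.86-fold against control. Slc40a1, the iron exporter ferroportin, was scarce. It had 0, 3 and 7 counts in controls 1, 2 and 3, 2, 3 and 5 with lithium, and 28, 10 and 31 with VPA, and its change of 2.57 ± 0.65 became 3.61 without control 3 and 1.98 without control 1. With so few control counts the size of that change is poorly set.

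Slc39a8, the importer ZIP8 of zinc and manganese, stood at 5.17, 2.82 and 3.11 CPM in controls, 3.19, 3.59 and 3.62 CPM with lithium and 8.73, 7.38 and 10.3 CPM with VPA (1.25 ± 0.27). Slc31a1, the copper importer CTR1, was at 24.7, 17.7 and 22.9 CPM in controls, 20.6, 24.5 and 25.8 CPM with lithium and 36.8, 29.1 and 39.7 CPM with VPA (0.69 ± 0.19). Neither gene had a VPA library within the range of the controls or of lithium. Of all genes tested, 25.5% did not overlap between VPA and control and 29.2% between VPA and lithium.

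The other pair of zinc importers were lower with VPA and are among the more abundant members. Slc39a13, the importer ZIP13 of intracellular membranes, was at 128, 142 and 155 CPM in controls, 127, 125 and 138 CPM with lithium and 57.0, 76.4 and 73.3 CPM with VPA, 0.487 of the control level (-1.04 ± 0.16). Slc39a6, the importer ZIP6, was at 184, 166 and 186 CPM in controls, 169, 189 and 191 CPM with lithium and 120, 118 and 128 CPM with VPA (-0.55 ± 0.14). Both had narrow groups, with VPA apart from control and lithium, which overlapped each other. Within the same Slc39 family, ZIP8 thus stood higher and ZIP6 and ZIP13 lower.

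Sugar carriers were mostly higher with VPA. Slc2a1 (ENSRNOG00000007284), the glucose transporter GLUT1, was the most counted member, at 170, 204 and 216 CPM in controls, 176, 217 and 176 CPM with lithium and 395, 556 and 179 CPM with VPA. VPA 1 and 2 were about 2 to 3 times the control mean of 196 CPM, and VPA 3 lay within the control range. It was the 1 tested member whose VPA and control libraries overlapped; the change of 0.94 ± 0.32 became 0.55 without VPA 2.

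Slc2a3, the neuronal glucose transporter GLUT3, showed the same order of VPA libraries at a lower level. It was at 1.54, 1.74 and 1.69 CPM in controls, 1.03, 1.40 and 2.85 CPM with lithium and 3.74, 5.99 and 2.33 CPM with VPA (1.26 ± 0.43), and VPA 3 lay under lithium 3. Slc2a4, the insulin-responsive glucose transporter GLUT4, was at 5.35, 7.16 and 7.28 CPM in controls, 4.22, 3.94 and 5.39 CPM with lithium and 10.3, 15.4 and 12.7 CPM with VPA (0.95 ± 0.24). In this gene VPA 3 stood with the other VPA libraries.

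Slc45a3, a proton-coupled sugar transporter also called prostein, was at 1.90, 1.19 and 2.84 CPM in controls, 2.41, 2.19 and 2.39 CPM with lithium and 7.09, 4.71 and 8.83 CPM with VPA (1.78 ± 0.34). Slc37a2, a sugar-phosphate exchanger of the endoplasmic reticulum, was at 2.99, 2.39 and 3.82 CPM in controls, 2.58, 4.73 and 3.31 CPM with lithium and 10.8, 6.85 and 5.94 CPM with VPA (1.35 ± 0.32). Slc35e4, an orphan of the nucleotide sugar transporter family, was the sugar-class member lower with VPA, at 117, 152 and 135 CPM in controls, 141, 122 and 119 CPM with lithium and 78.2, 101 and 82.1 CPM with VPA (-0.63 ± 0.17). None of these 3 genes had a VPA library within the control or lithium range. Of all genes tested, 25.5% did not overlap between VPA and control and 29.2% between VPA and lithium.

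All 3 mitochondrial carriers stood higher with VPA. Slc25a29, a carrier of basic amino acids, was at 0.725, 0.868 and 1.33 CPM in controls, 1.21, 1.31 and 1.77 CPM with lithium and 2.65, 3.32 and 2.41 CPM with VPA (1.49 ± 0.35). Slc25a23, a calcium-regulated exchanger of ATP-magnesium for phosphate, was at 3.17, 1.41 and 4.09 CPM in controls, 3.01, 2.89 and 6.01 CPM with lithium and 6.62, 5.14 and 10 CPM with VPA (1.32 ± 0.42). Slc25a30, an inner-membrane carrier first described in kidney, was at 16.4, 9.43 and 14.7 CPM in controls, 10.6, 15.2 and 17.6 CPM with lithium and 27.4, 24.6 and 30.1 CPM with VPA (1.01 ± 0.25). VPA and control did not overlap in any of the 3, where 25.5% of all genes tested did not overlap. All 3 were listed by the authors on this comparison, so nothing is read from that count. The fit did not call Slc25a23, and lithium 3 lay above VPA 2 for that gene.

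Carriers of hormones and organic anions were few. Slc22a25, an orphan of the organic anion transporter family, had 1 count in controls, 11 with lithium and 25 with VPA, a VPA to control ratio of 23.5 with a 95% exact counting interval of 3.84 to 964, again for counting error only and on the listing comparison. It belongs to a cluster of closely related genes that can share reads, so its value is uncertain. No member fell in the class of lipid carriers, which are not analysed here.

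Slco4a1 (ENSRNOG00000053430), the organic anion transporter OATP4A1 that also carries thyroid hormones, was the only tested member whose lithium and control libraries did not overlap. It was at 1.36, 1.74 and 2.84 CPM in controls, 0.861, 0.613 and 0.847 CPM with lithium and 3.27, 5.35 and 4.01 CPM with VPA, so the groups took 3 separate levels. The fitted change was -1.34 ± 0.39 with lithium and 1.07 ± 0.34 with VPA, both against the same controls. It was listed for its lithium value, so the lithium change is a description. Neither change was called in the edgeR fit of all 9 libraries without a block. The VPA change was called with the replicate block, on all groups or on VPA and control alone. It was also called without a block when control 3 was left out (1.44). Counts in the lithium libraries were 10, 7 and 11, which sets the precision of the lithium level.

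**Figure D2:**
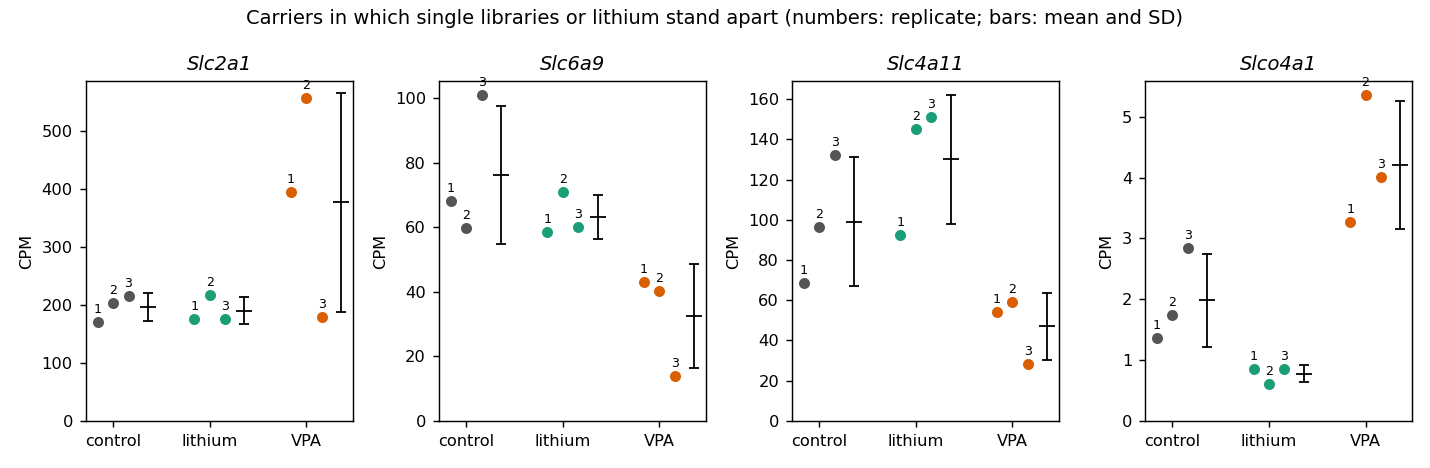
CPM of Slc2a1, Slc6a9, Slc4a11 and Slco4a1 in each library, on linear axes from 0; numbers give the replicate, and the black mark and bar give the group mean and SD of 3 libraries. VPA 3 lies within the control range for Slc2a1 and below VPA 1 and 2 for Slc6a9 and Slc4a11, and lithium lies below control for Slco4a1.

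VPA 3 stood apart from VPA 1 and 2 in some members and not in others. Comparing each VPA library with the control of the same number, on log2(CPM + 0.5), 18 tested members were higher in all 3 pairs, 6 were lower in all 3 and 1, Slc2a1, was mixed. For Slc2a1 the differences were 1.22, 1.44 and -0.27 in pairs 1, 2 and 3. For Slc6a9 they were -0.65, -0.56 and -2.80, and for Slc4a11 -0.34, -0.70 and -2.21. In contrast Slc39a13 differed by -1.16, -0.89 and -1.07 and Slc45a3 by 1.66, 1.62 and 1.48. The spread between pairs therefore differed among these genes, and its source was not tested. The coefficient of variation of the 25 members had a median of 32.5% in controls, 21.0% with lithium and 24.9% with VPA.

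**Figure D3:**
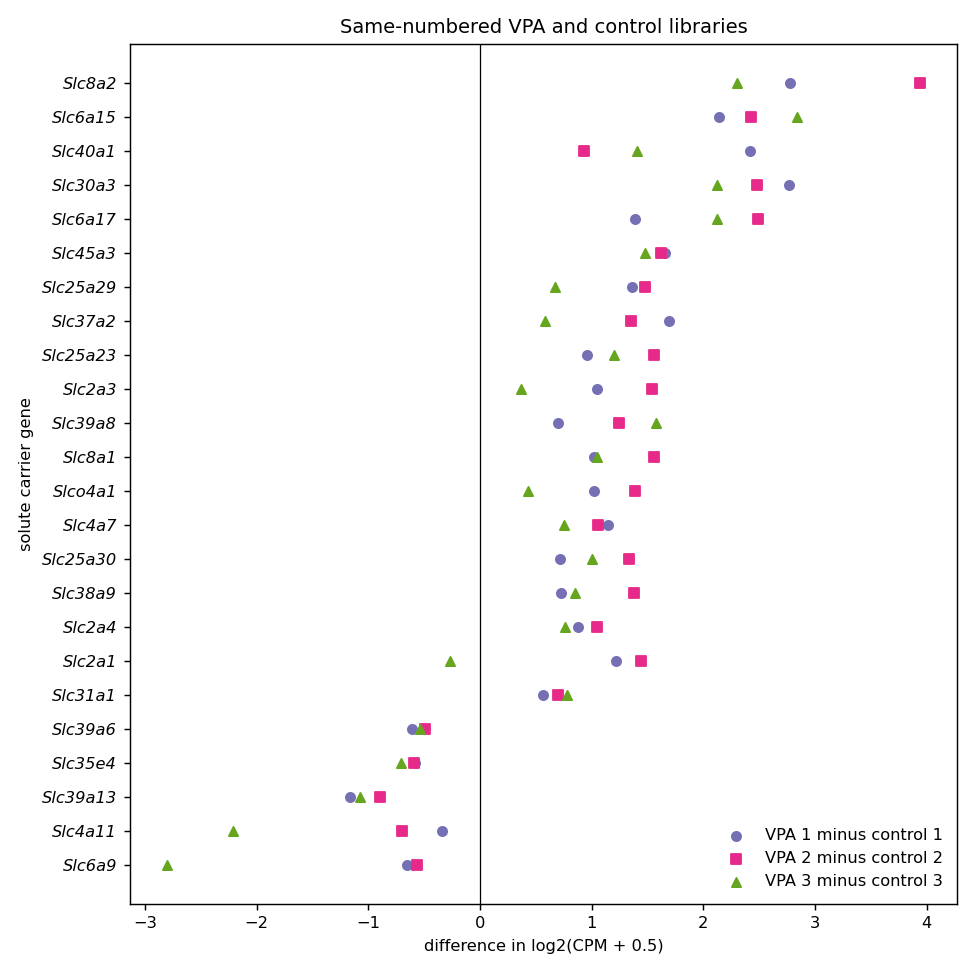
Difference in log2(CPM + 0.5) between each VPA library and the control of the same number, for 24 tested carriers ordered by fitted change; each symbol is 1 pair. Pair 3 lies far to the left of the other pairs for Slc6a9 and Slc4a11 and crosses 0 for Slc2a1, while the pairs of Slc39a13, Slc39a6 and Slc45a3 lie close together.

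Lithium against control asks whether the second drug alters the same transcripts. The fit called 0 of 25 members and 0 of all 12719 genes, or 0%, by edgeR's quasi-likelihood test. DESeq2 also called 0. At an unadjusted p under 0.05 edgeR gave 2 members, Slco4a1 and Slc2a4, and 116 genes, and DESeq2 gave 3 members and 113 genes. The median log2 change of the members was 0.04, beside 0.00 over all genes tested. Lithium and control libraries did not overlap in 1 of 25 members, where 3.29% of all genes tested did not, 1.71% higher and 1.57% lower. For Slc2a4 the change was -0.54 ± 0.25 and lithium 3 lay just above control 1. These values use the same controls as the VPA comparison by which most members were listed. Lithium 1 deviated from its group mean with control 2 (correlation 0.681) and lithium 2 with control 1 (0.647), and no fit paired them so. The 0 calls therefore do not show that lithium was without effect.

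**Figure D4:**
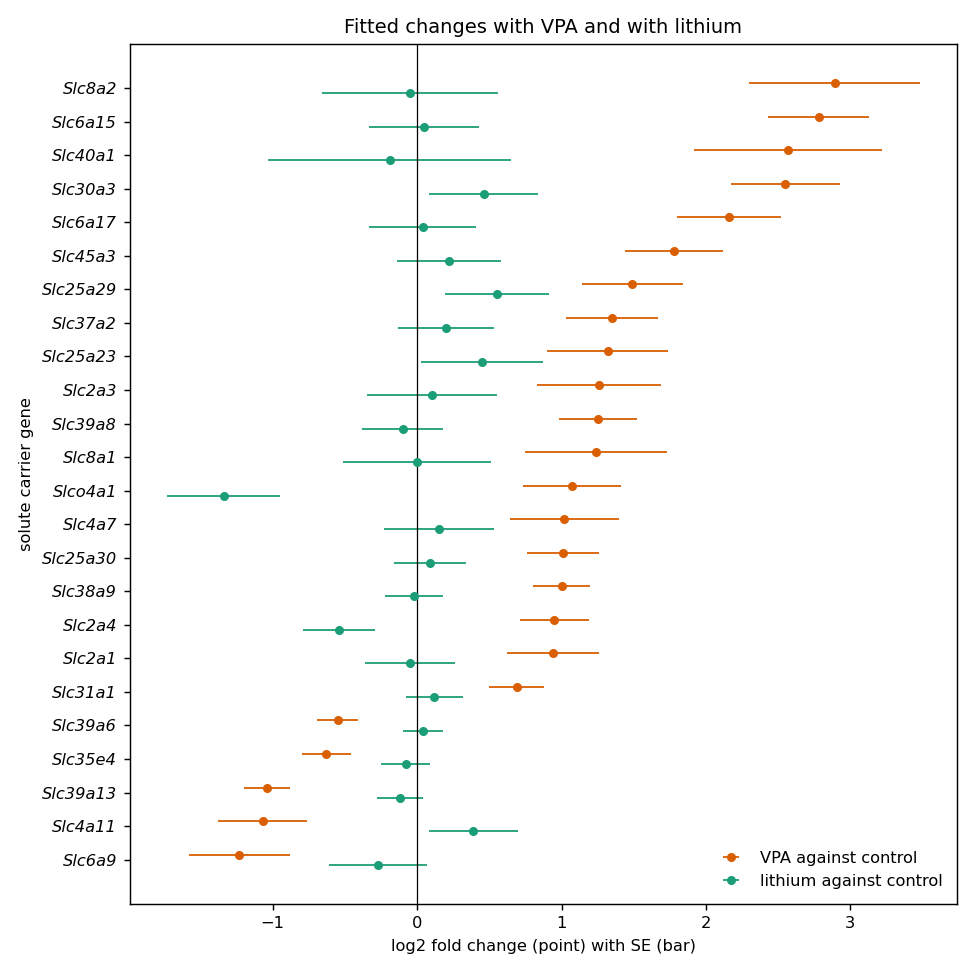
Fitted log2 fold change against control with its SE for 24 tested carriers, with VPA in orange and lithium in green, ordered by the VPA change. VPA changes run from -1.23 for Slc6a9 to 2.89 for Slc8a2, and lithium changes lie between -0.54 (Slc2a4) and 0.55 (Slc25a29) except that of Slco4a1 at -1.34.

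VPA against lithium compares the drugs directly, with the VPA libraries that also entered the listing. The fit called 15 of 25 members, 12 higher and 3 lower with VPA, where 7.93% of all genes tested were called, 5.61% higher and 2.32% lower. Since the VPA libraries are shared, that count is not independent of the listing. It was 9 without lithium 2. By fitted change Slc8a2 (2.93 ± 0.58; 3.56 without lithium 3), Slc40a1 (2.76 ± 0.65), Slc6a15 (2.73 ± 0.34) and Slco4a1 (2.42 ± 0.37) were highest and Slc4a11 (-1.46 ± 0.31) was lowest. Slc4a11 was slightly higher with lithium than in control and lower with VPA, so its drug-to-drug difference exceeded its VPA change of -1.07. Slc2a4, slightly lower with lithium, differed by 1.49 ± 0.24 between the drugs. The libraries of the drugs overlapped for 5 members, Slc2a1, Slc2a3, Slc4a7, Slc8a1 and Slc25a23, and did not for 14 higher and 6 lower; among all genes tested 29.2% did not overlap, 15.7% higher and 13.5% lower. Moved by 1 library here were Slc8a1, at 1.92 without lithium 3 and 1.23 with it, Slc6a9 (-0.60 without VPA 3, -0.96 with it), Slc25a23 (0.56 without VPA 3, 0.87 with it), Slc2a1 (0.61 without VPA 2, 0.99 with it) and Slc4a7 (0.87, but 0.56 without lithium 1 and 0.47 without VPA 1).

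Levels of different carriers can be compared only per transcript length, which the authors' Cufflinks table gives as 1 FPKM value per group for 17 members. In the authors' deposited table Slc39a6 (50.2 FPKM) and Slc39a13 (44.4 FPKM) were highest of the 17 in controls, followed by Slc4a11 (26.8), Slc6a9 (21.8) and Slc4a7 (21.3). With VPA, Slc39a6 was at 32.9, Slc39a13 at 21.1, Slc4a11 at 11.9, Slc6a9 at 8.82 and Slc4a7 at 39.7 FPKM. The order covers only these 17 members, without Slc2a1 and Slc35e4, which are among the most counted. Slc6a15 and Slc25a29 were lowest of the 17 in controls, at 0.313 and 0.300 FPKM in the authors' deposited table. At 2.36 FPKM with VPA, Slc6a15 was still far below the zinc importers.

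Transcript-level values differed from gene-level ones for a few members. The authors' deposited Salmon and sleuth table lists 2 transcripts of Slc8a2, with VPA effects on the natural log scale that correspond to 15.2-fold and 2.31-fold. For Slc6a15 the listed transcript had an effect of 1.89-fold in the authors' deposited table, against 6.87-fold for the gene in the counts. Slc40a1 was at 10.3-fold for its listed transcript in the authors' deposited table. For Slc39a13 (0.481), Slc38a9 (2.00) and Slc2a4 (1.94) the folds in the authors' deposited table were close to the 0.487, 1.99 and 1.94 of the counts. Both quantifications use the same libraries.

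Other transport and response genes that carry a name, again listed by the authors on these samples and so no independent evidence, moved as follows with VPA against control. Of 9 ATP-driven transporters, pump subunits and aquaporins, 6 rose, 2 fell and 1 did not pass (median log2 change 1.26), where 5.71% of all genes tested were called higher and 2.99% lower. Atp1b2, a beta subunit of the sodium pump, rose by 2.53 ± 0.26 and Abcg2, a drug efflux pump, by 2.14 ± 0.34. The water channel Aqp1 stood at 166, 157 and 176 CPM in controls, 128, 105 and 127 CPM with lithium and 28.4, 35.6 and 31.4 CPM with VPA, a fall of -2.39 ± 0.16. Its lithium libraries also lay below its control libraries, as in 1.57% of all genes tested. Abca1, the cholesterol exporter, fell (-1.93 ± 0.45) but lost its call without control 1 (-1.25, adjusted p = 0.0732), VPA 2 (0.0803) or VPA 3 (0.0828) in edgeR's test.

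The amino acid response list has 37 genes, of which only 4 carry a name; 3 of these fell and 1 did not pass (median -0.97), beside 2.99% called lower over all genes tested. Aldh1l2, a mitochondrial folate enzyme, changed by -1.20 ± 0.21 and Phgdh, the first enzyme of serine synthesis, by -0.98 ± 0.24. Phgdh lost its call in edgeR's test without control 2, VPA 1, VPA 2 or VPA 3 (adjusted p = 0.0726, 0.0532, 0.0632 and 0.0908). Of 32 metal handling genes only 4 carry a name, and of these 2 rose, 1 fell and 1 did not pass (median 0.72), beside 5.71% called higher and 2.99% lower over all genes tested. The brain metallothionein Mt3 changed by 2.17 ± 0.42, the metalloreductase family member Steap1 by 1.08 ± 0.26 and the ferroxidase ceruloplasmin, Cp, by -1.88 ± 0.41. Steap1 lost its call without control 1, control 2, VPA 2 or VPA 3 (edgeR adjusted p = 0.083, 0.0703, 0.0638 and 0.0824), and Cp without control 1, VPA 2 or VPA 3 (0.0613, 0.0574 and 0.068).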

How the data were processed

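RNA of 9 libraries was measured by RNA-seq. Per the submitters' processing notes, which give no roles, the tools included Salmon 0.6.1, sleuth, DESeq2, STAR 2.5.1 and Cufflinks 2.2.1; a genome build is not named in what was used here. The authors deposited raw counts per Ensembl gene (HTSeq per the table's title). Per the file headers, the authors deposited for VPA a DESeq2 table (log2 fold changes, p-values, a test score), a Salmon and sleuth table (effects on the natural log scale, q-values) and a Cufflinks table (FPKM per group), and for lithium a DESeq2 table with normalized counts per library (a signal). A table titled for kallisto repeats the VPA DESeq2 genes and was not used.

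The deposited counts went into edgeR 4.0.16 (R 4.3.3) with TMM scaling and filterByExpr at a minimum count of 10. Group means were fitted jointly for the 9 libraries by robust quasi-likelihood, leaving 6 residual degrees of freedom. Two-sided p-values of the 12719 genes that passed were adjusted by Benjamini-Hochberg, and calls required an adjusted value below 0.05. SE is the log2 change over the square root of F. The fitting script was checked on simulated data. Members and lists were chosen with earlier results of these data known, and the substrate classes were adjusted after the members were seen. Members were named where the mean reached 1 CPM and VPA and control libraries did not overlap or the fit made a call in any comparison; Slc2a1, Slc40a1, Slc22a25, Slc38a5 and Slc7a2 fall outside that rule and were described after their values were seen. The values of 1 tested member are not reported here and it is left out of the plots, but it stays in the counts. From the other lists, up to 2 called genes each way with the largest changes are named.

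Same-numbered VPA and control libraries deviated together over 10287 genes at 5 CPM or above on average (correlations 0.6, 0.533 and 0.525), so their title numbers, which the labels do not explain, were taken as pairs in a blocked alternative; lithium 3 deviated with control 3 (0.801), but lithium 1 and 2 did not with controls 1 and 2 (-0.418 and -0.0816). Across numbers, lithium 1 with control 2 gave 0.681 and lithium 2 with control 1 gave 0.647; no fit crossed the numbers. Alternatives were DESeq2 1.42.0, median-ratio and upper-quartile scaling, no filter, the compared groups alone, that block, and each library left out.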

Additional observations from a re-analysis of the deposited data

How the results depend on the processing

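Over 16 alternatives, the 25 tested members kept the sign of their VPA against control change in all of them. Of the 18 called, 6 (Slc6a15, Slc6a17, Slc30a3, Slc38a9, Slc39a13 and Slc45a3) were called in every alternative, and 12 lost the call in at least 1. It was lost most often for Slc6a9 (13 alternatives), Slc31a1 (11) and Slc39a6 (10). With 1 library left out, called members numbered 9 to 16 for VPA against control and 9 to 15 for VPA against lithium, and called genes 638 to 1026 and 544 to 1197. With the replicate number as a block, genes called rose to 1741 for VPA against control and to 1609 for VPA against lithium. They rose to 2408 for VPA against control when the block was fitted on those groups alone. The cause was not tested. The labels do not say that the lithium numbers in the first block stand for pairs, and lithium 1 and 2 did not deviate with controls 1 and 2. The block moved no count of called members by over 1.5 times. For lithium against control, 0 genes and 0 members were called in every alternative, but none of these paired lithium 1 with control 2 and lithium 2 with control 1. Depth limits Slc22a25, Slc38a5, Slc7a2 and Slc40a1, whose control totals were 1, 2, 24 and 10 counts.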

Other observations

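The 4 carriers named only in the authors' Cufflinks table lie outside the count-based description, since that table gives no Ensembl identifier. In the authors' deposited table Slc38a2, a glutamine and alanine transporter of system A, was at 67.2 FPKM in control and 40.4 FPKM with VPA, above every listed member in both groups. Slc4a3, an anion exchanger, was at 9.96 and 5.97 FPKM in the authors' deposited table. Slc4a8, a sodium-driven chloride-bicarbonate exchanger, was at 0.833 and 1.72 FPKM there, and Slc26a2, a sulfate transporter, at 1.40 and 2.41 FPKM. Within the Slc4 family the authors' deposited table thus lists Slc4a7 and Slc4a8 higher and Slc4a3 and Slc4a11 lower with VPA. These are 1 value per group, with no spread between libraries.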
